A study of Homo sapiens with 6 samples.

Results

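The transcripts of 10 stress granule proteins are described here: G3BP1, G3BP2, CAPRIN1, USP10, UBAP2L, TIA1, TIAL1, ATXN2, ATXN2L and PABPC1. They are 10 of the 30493 genes in a table of read counts from A549 cells and were taken by gene symbol. The list was selected on the knockdown against control fold changes of these same libraries, in particular that of G3BP2, so the members' changes are descriptions and carry no test of their own. A549 is an established line of human lung adenocarcinoma cells. Poly(A) RNA was compared between 3 control libraries, labelled NC and control plasmid, and 3 libraries labelled si_STAU1 and STAU1 knockdown, with no other treatment or time given. Whether each library stands for its own culture is not stated, so the p-values rest on a library-to-library spread that may be technical. How STAU1 was depleted is likewise unstated.

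Stress granules are condensates of messenger RNA and protein that form in the cytoplasm when translation initiation stalls, and they dissolve when it resumes. G3BP1 and its paralog G3BP2 are the RNA-binding scaffolds that start their assembly. Caprin-1 and UBAP2L bind the G3BP proteins and favour assembly, USP10 competes with caprin-1 for them and opposes it, and TIA1, TIAL1, the ataxin-2 proteins and the poly(A)-binding protein join the same condensates. STAU1 is a double-stranded RNA-binding protein of transport granules and mRNA decay that is also found in stress granules.

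Because G3BP2 and G3BP1 differed in their response, how far their reads can be told apart is shown first. The coding sequences of the pair aligned at 72.4% identity over 1344 bases, and the longest identical run was 17 bases, far below the read length of 150. The most alike in-frame window of 90 bases covers coding positions 325 to 414 in both, counted from the A of the start codon. Capitals mark the 15 positions at which the transcripts differ there (GENCODE 29, GRCh38, G3BP1 on the plus strand of chromosome 5 and G3BP2 on the minus strand of chromosome 4).
G3BP1: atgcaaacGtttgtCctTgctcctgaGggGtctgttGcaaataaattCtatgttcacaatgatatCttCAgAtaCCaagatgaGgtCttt
G3BP2: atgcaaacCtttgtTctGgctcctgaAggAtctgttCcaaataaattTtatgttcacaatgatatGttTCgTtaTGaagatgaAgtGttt

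The other close pair is TIA1 and TIAL1, shown for the same reason. Their coding sequences aligned at 77.2% identity over 1102 bases with a longest identical run of 28 bases. The most alike window covers coding positions 775 to 864 of TIA1 and 748 to 837 of TIAL1, on the minus strands of chromosomes 2 and 10, and the capitals mark 12 differing positions.
TIA1: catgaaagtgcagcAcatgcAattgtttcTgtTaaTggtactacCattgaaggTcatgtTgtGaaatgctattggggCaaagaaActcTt
TIAL1: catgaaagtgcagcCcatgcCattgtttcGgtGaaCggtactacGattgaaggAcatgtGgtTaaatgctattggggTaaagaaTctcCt

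The pair ATXN2 and ATXN2L was less alike, at 68.7% identity over 2954 bases with a longest identical run of 16. Stretches of 31 bases from 1 annotated transcript per member were also looked up in the transcripts of all other GENCODE 29 genes, on both strands. Sequence found only in other transcripts of a member was not searched, and the TIAL1 transcript was short, with 1371 stretches. None of the 4853 stretches of the G3BP2 transcript occurred elsewhere, and CAPRIN1, UBAP2L and TIAL1 likewise shared none. G3BP1 shared 1.79%, TIA1 3.92% and ATXN2 1.58%. Far more was shared by USP10 (30.31%), ATXN2L (24.6%) and PABPC1 (29.44%), so reads of these 3 may be less certain to be theirs alone. How many reads this touches was not tested. For USP10 the main partner was a processed pseudogene, and for PABPC1 the related gene PABPC3 with 3 to 8 counts per library. For ATXN2L it was an antisense gene at the same place on the opposite strand, with 9 to 19 counts. That match arises because both strands were searched.

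Libraries held 30354219 to 35431441 counts, and all 10 members were among the 17089 genes with enough counts to be tested. Levels are given as CPM, counts scaled to library size with TMM factors, where 1 CPM stood for 30.62 to 36.16 counts. STAU1 itself had 120.5, 124.5 and 117.1 CPM in controls and 16.0, 15.7 and 14.6 in knockdown libraries, with every knockdown library below every control. The epithelial keratins KRT8 and KRT18 were abundant in all libraries, at 4371 and 4128 CPM in controls and 3328 and 3028 in knockdown libraries. Of the 6 epithelial markers listed KRT8, KRT18 and KRT7 were called lower, CDH1 and EPCAM were called higher and KRT19 was not called, and their sum went from 9998 to 10060 CPM of the total counts in controls to 7766 to 7956 in knockdown libraries. Mitochondrial genes took 17.3% to 17.9% of the counts in controls and 15.8% to 16.1% in knockdown libraries. Of 17 markers of immune, endothelial, fibroblast, liver and erythroid cells 6 had no row in the table and 6 could be tested, of which CD14 and CDH5 were called higher. The summed markers took 12.7 to 13.7 CPM of the total counts in controls and 16.3 to 18.9 in knockdown libraries for immune cells, 1.26 to 1.53 and 2.06 to 2.73 for endothelial cells and fibroblasts, and 1.46 to 1.70 and 2.17 to 2.35 for liver and erythroid lines. Their part in the results below was not tested.

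Of the 10 members 3 were called higher (G3BP2, PABPC1, TIA1), 3 were called lower (ATXN2L, USP10, CAPRIN1) and 4 were not called in edgeR's quasi-likelihood test at an adjusted p under 0.05 over all genes. The background was high: the same threshold called 44.2% of all tested genes, 22.2% higher and 22.0% lower. The libraries of the groups did not overlap for 7 of the 10 members, against 51.4% of all tested genes. Nothing is read from these counts, since the list was selected on this contrast. The members' median log2 fold change was -0.04, against -0.000355 over all tested genes. G3BP2 stood apart in size, at 0.92, while the other 9 lay between -0.15 and 0.24. With total-count scaling, or on either log2 FPKM scale, the 3 higher calls stayed at 3 and the lower calls went from 3 to 0. Over all genes those settings raised the share of calls that were higher from 50.3% to 69.5%, 77.2% and 77.3%.

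**Figure D1:**
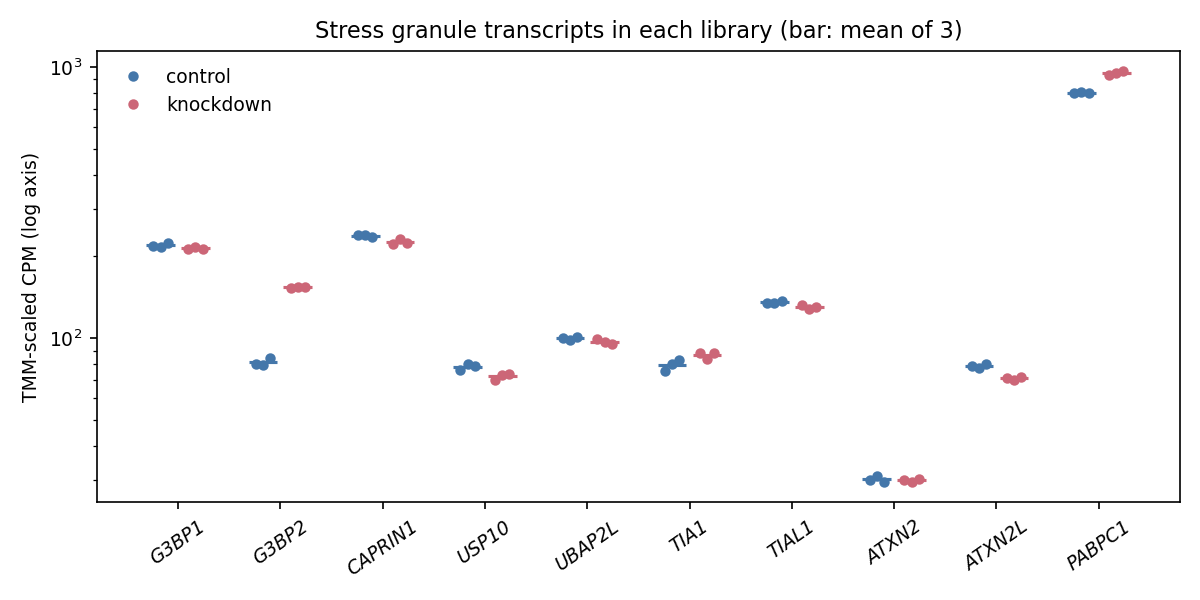
TMM-scaled CPM (log axis) of the 10 transcripts in the 3 control and 3 knockdown libraries, with 1 point per library and a bar at the mean. The G3BP2 points of the groups lie far apart, from 79.9 to 84.4 CPM in controls and from 153 to 154 CPM in knockdown libraries, while the other genes move little on this scale.

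Among the scaffolds, the G3BP2 transcript was almost doubled. G3BP2 (ENSG00000138757.15, chromosome 4, 75642782 to 75724525, minus strand, placed as in GENCODE 29) had 80.3, 79.9 and 84.4 CPM in the controls, replicate 1 first. The knockdown libraries had 153.0, 154.4 and 154.1 CPM in the same order. The groups did not overlap, with coefficients of variation of 3.03% in controls and 0.48% in knockdown libraries. The gap is a description, since the list was selected on this change. The fitted log2 fold change was 0.92 (SE 0.03), a 1.89-fold difference, and its size was above that of 97.7% of tested genes. It stayed between 0.89 and 1.01 over 16 other settings. Among all 17089 tested genes, called or not, it ranked at 255 by log2 fold change, counted from the highest.

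G3BP1, the better-known scaffold of the pair, did not follow it. G3BP1 (ENSG00000145907.16, chromosome 5, 151771045 to 151812785, plus strand) had 218.6, 216.9 and 223.9 CPM in controls and 212.9, 217.5 and 213.2 CPM in knockdown libraries. The groups overlapped, and the log2 fold change of -0.04 (SE 0.02) was not called. Its sign depended on the scaling and was positive with total-count scaling and on both FPKM scales, where it reached 0.07 without a call. The opposite-strand gene ATOX1, a copper chaperone gene with 1221 to 1497 counts per library, overlaps G3BP1 by 1488 bases.

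The binding partners of the G3BP proteins were nearly level. CAPRIN1, for caprin-1 (chromosome 11, 34051683 to 34101156, plus strand), had 239.9, 240.4 and 235.8 CPM in controls and 223.2, 231.8 and 225.1 in knockdown libraries. The groups were just apart, and the log2 fold change of -0.07 (SE 0.02) was called lower, but it was 0.0026 with total-count scaling and 0.03 and 0.04 on the FPKM scales, and the call was lost without knockdown replicate 1, where the value was -0.06 (SE 0.03). USP10, a deubiquitinase (chromosome 16, 84699978 to 84779922, plus strand), had 76.1, 80.3 and 79.0 CPM in controls and 70.1, 72.8 and 74.0 in knockdown libraries. All 3 knockdown values lay below the controls, with a log2 fold change of -0.12 (SE 0.03), called lower but not with total-count scaling (-0.04) or on the FPKM scales (-0.0081 and -0.0087). UBAP2L, an RGG-rich protein (chromosome 1, 154220179 to 154271510, plus strand), had 100.3, 98.6 and 101.0 CPM in controls and 98.9, 96.5 and 94.9 in knockdown libraries. Here the groups overlapped and the log2 fold change of -0.05 (SE 0.03) was not called, with a positive sign under total-count scaling and on the FPKM scales. The annotated start of UBAP2L overlaps the opposite-strand gene C1orf43 by 459 bases, and C1orf43 had 6739 to 7798 counts per library. Reads there cannot be assigned with certainty, since the strand setting of the counting is unknown.

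**Figure D2:**
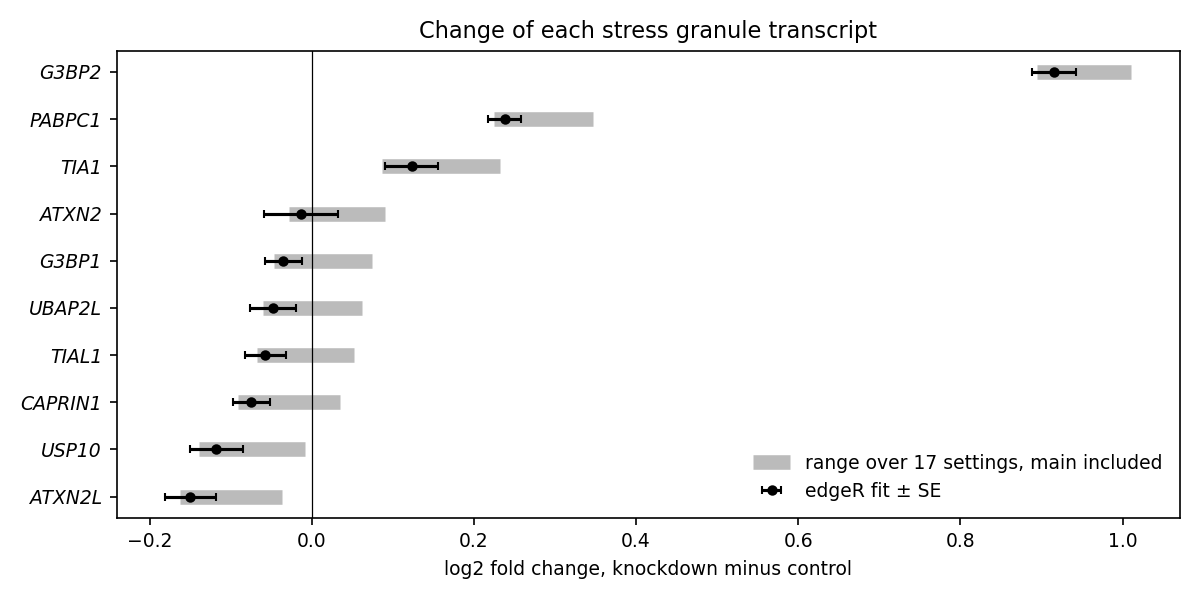
Fitted log2 fold change, knockdown minus control, with its standard error for each transcript (points and bars), and the range of the value over the fit shown and 16 other settings (grey). G3BP2, PABPC1 and TIA1 stay above 0 throughout, and USP10 and ATXN2L stay below 0.

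TIA1 and TIAL1 encode RNA-binding proteins with prion-like tails that bind U-rich and 5' TOP messages and repress their translation. TIA1 (chromosome 2, 70209444 to 70248660, minus strand) had 75.5, 80.0 and 83.2 CPM in controls and 88.2, 83.8 and 88.0 in knockdown libraries. The groups were apart by less than 1 CPM, and the controls were spread more widely than for any other member, with a coefficient of variation of 4.87%. Its log2 fold change was 0.12 (SE 0.03), called higher in all 16 other settings with values from 0.09 to 0.23. The call was narrow without control replicate 1, at 0.087 (SE 0.035, edgeR adjusted p = 0.0488). The annotated same-strand gene C2orf42 overlaps TIA1 by 39172 bases and had 258 to 382 counts per library and a log2 fold change of 0.12 (SE 0.08) that was not called. TIAL1, also known as TIAR (chromosome 10, 119571802 to 119597029, minus strand), had 134.8, 135.0 and 136.9 CPM in controls and 132.8, 128.0 and 130.0 in knockdown libraries. The knockdown libraries were lower by a margin of about 2 CPM, and the log2 fold change of -0.06 (SE 0.03) was not called and turned positive with total-count scaling and on the FPKM scales.

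The ataxin-2 proteins bind the poly(A)-binding protein and adjust both mRNA stability and granule number. ATXN2 (chromosome 12, 111443485 to 111599676, minus strand), the gene of spinocerebellar ataxia type 2, had the lowest counts of the members, 930 to 949 in controls and 936 to 1093 in knockdown libraries. This was 29.98, 31.01 and 29.61 CPM in controls against 29.9, 29.5 and 30.2 CPM, with groups that overlapped and a log2 fold change of -0.01 (SE 0.05) that was not called and was positive in 4 of 16 other settings. SH2B3 on the opposite strand overlaps ATXN2 by 8139 bases, with 130 to 194 counts per library and a log2 fold change of -0.45 (SE 0.11), called lower. ATXN2L, the paralog of ATXN2 (chromosome 16, 28823035 to 28837237, plus strand) had 78.8, 77.6 and 80.2 CPM in controls and 71.3, 70.4 and 71.6 in knockdown libraries. The groups were clearly apart, and the log2 fold change of -0.15 (SE 0.03), the lowest among the members, was called lower but not with total-count scaling (-0.07) or on the FPKM scales (both -0.04). The opposite-strand genes AC145285.6 and AC133550.1 overlap ATXN2L by 935 and 6589 bases. They had 9 to 19 and 13 to 38 counts per library, and neither was called.

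PABPC1 encodes the main cytoplasmic poly(A)-binding protein, which coats the tails of translated messages, and it was the most abundant member. PABPC1 (ENSG00000070756.17, chromosome 8, 100685816 to 100722809, minus strand) had 803.0, 809.3 and 800.5 CPM in controls and 932.6, 949.6 and 963.2 in knockdown libraries. Every knockdown library was far above every control, and the log2 fold change was 0.24 (SE 0.02), called higher in all 16 other settings with values from 0.23 to 0.35. The paralog PABPC4, not a member, went from 94.3 ± 1.69 to 100.9 ± 1.82 CPM (log2 fold change 0.10, SE 0.03, adjusted p = 0.00463 in edgeR).

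To compare levels between genes, the deposited FPKM values, which are scaled by gene length, were used. The lengths behind them are not stated, and the order between genes depends on them. In controls the order was PABPC1 (68.8 FPKM), CAPRIN1 (21.4), TIAL1 (15.0), USP10 (12.6), UBAP2L (10.9), ATXN2L (9.84), TIA1 (9.83), G3BP1 (8.96), G3BP2 (4.82) and ATXN2 (1.49). Among neighbours in this order the libraries overlapped for ATXN2L and TIA1 alone, and TIA1 and G3BP1 came close, at 9.33 and 9.17 in their nearest libraries. In knockdown libraries G3BP2 reached 9.82 ± 0.233 FPKM (SD, n = 3), beside ATXN2L at 9.57 ± 0.261 and G3BP1 at 9.44 ± 0.203. ATXN2L overlapped with both, while the lowest G3BP2 library, at 9.61, lay just above the highest G3BP1 library, at 9.6. TIA1 at 11.6 ± 0.465 overlapped there with UBAP2L at 11.4 ± 0.0954 and with USP10 at 12.6 ± 0.595. On this FPKM scale G3BP2 thus moved from below all members but ATXN2 to a level that the libraries did not separate from that of ATXN2L.

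Within the G3BP pair, G3BP2 made up 34.8%, 34.8% and 35.4% of the summed FPKM in the controls and 51.1%, 50.7% and 51.2% in the knockdown libraries. The difference was 16.0 percentage points, where the share had an SD of 0.331 in controls and 0.242 in knockdown libraries. This difference is a description, since the list was selected on the change of G3BP2. It does not depend on library scaling, since both genes share the divisor of a library, but the shares depend on the gene lengths used. Counts over FPKM imply a length for G3BP2 of 0.689 times that of G3BP1. With counts divided by the length of a single annotated transcript, 10240 bases for G3BP1 and 4883 for G3BP2, the shares were 43.7% ± 0.346 and 60.1% ± 0.224, a choice made after seeing the data. The summed FPKM of the pair was 13.8 ± 0.365 in controls and 19.3 ± 0.425 in knockdown libraries.

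The other pairs moved by 3 percentage points or so at most. TIAL1 held 60.5% ± 0.996 of its pair with TIA1 in controls and 57.5% ± 0.413 in knockdown libraries, and the libraries did not overlap. ATXN2L held 86.9% ± 0.439 and 85.7% ± 0.0459 of its pair, also without overlap. For UBAP2, the paralog of UBAP2L, the shares of 21.8% ± 0.462 and 22.1% ± 0.746 overlapped, as did those of CAPRIN2, 9.79% ± 0.672 and 9.77% ± 0.343. UBAP2 had a log2 fold change of -0.02 (SE 0.04) and CAPRIN2 of -0.08 (SE 0.05), neither called by edgeR (adjusted p = 0.683 and 0.249). PABPC4 held 9.82% ± 0.198 of its pair with PABPC1 in controls and 8.997% ± 0.161 in knockdown libraries.

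**Figure D3:**
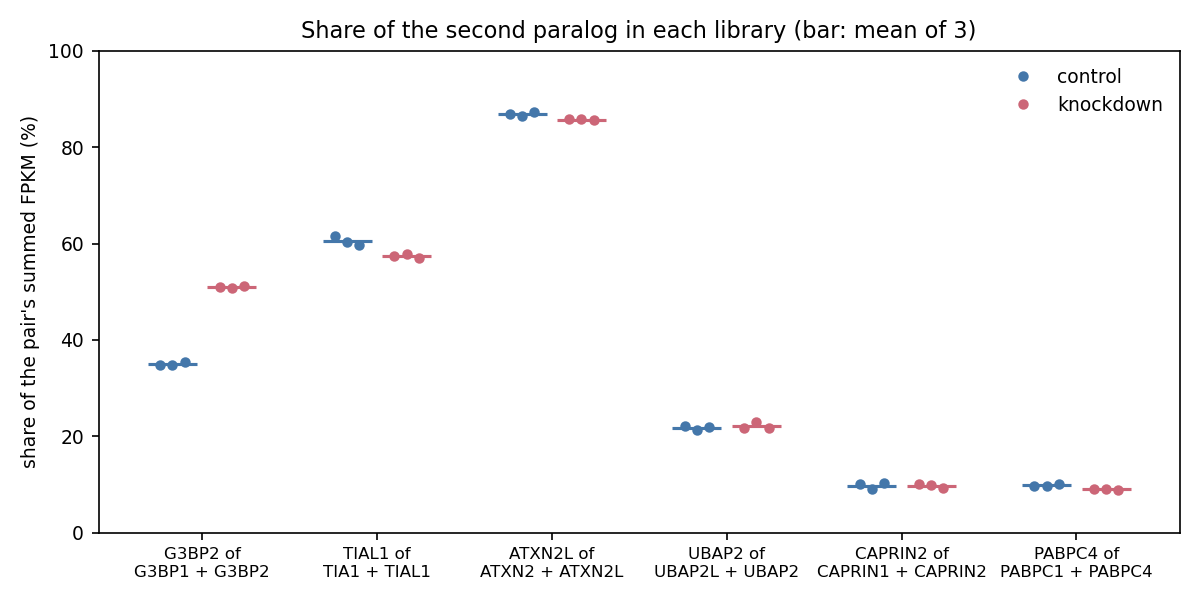
Share of the second paralog in the summed FPKM of 6 pairs, in percent, with 1 point per library and a bar at the mean of 3. G3BP2 goes from 34.8% to 35.4% of its pair in controls to 50.7% to 51.2% in knockdown libraries. This step is wider than in the other 5 pairs, but the list was selected on the change of G3BP2.

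The surroundings of G3BP2 were looked at after its values were seen. Of 9 other tested genes overlapping a window of 500 kb on either side, 4 were called higher, 0 lower and 5 were not called. Their median was 0.26 on the log2 scale, against -0.000355 over all tested genes. Among all tested genes 44.2% were called in either direction and 22.2% were called higher. With 9 genes, chosen after the values were seen, no result about this neighbourhood is read from the count. USO1, which encodes a vesicle tethering factor of the Golgi, starts 67 bases away on the opposite strand in GENCODE 29 (75724593) and had 66.8 ± 2.53 CPM in controls against 80.0 ± 0.896, a rise of 0.26 on the log2 scale (SE 0.03, edgeR adjusted p = 4.9e-09). RCHY1, a ubiquitin ligase gene that overlaps the window downstream of G3BP2, rose by 0.33 (SE 0.07, adjusted p = 1.3e-04), and NAAA, an acid amidase gene, by 0.36 (SE 0.07, adjusted p = 1.0e-05). FAM47E rose by 0.80 (SE 0.21), from a low level of 1.05 ± 0.0554 to 1.83 ± 0.409 CPM. SDAD1, NUP54, SCARB2, THAP6 and CDKL2 were not called. G3BP2 had 0.92 (SE 0.03), FAM47E had 0.80 (SE 0.21), and the highest value among the other neighbours was 0.36, for NAAA. RefSeq (GRCh38.p14) places 5 starts of G3BP2, 4 of them between 75672701 and 75673595 and 1 at 75724437 beside USO1, and the gene-level counts do not tell which was used.

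**Figure D4:**
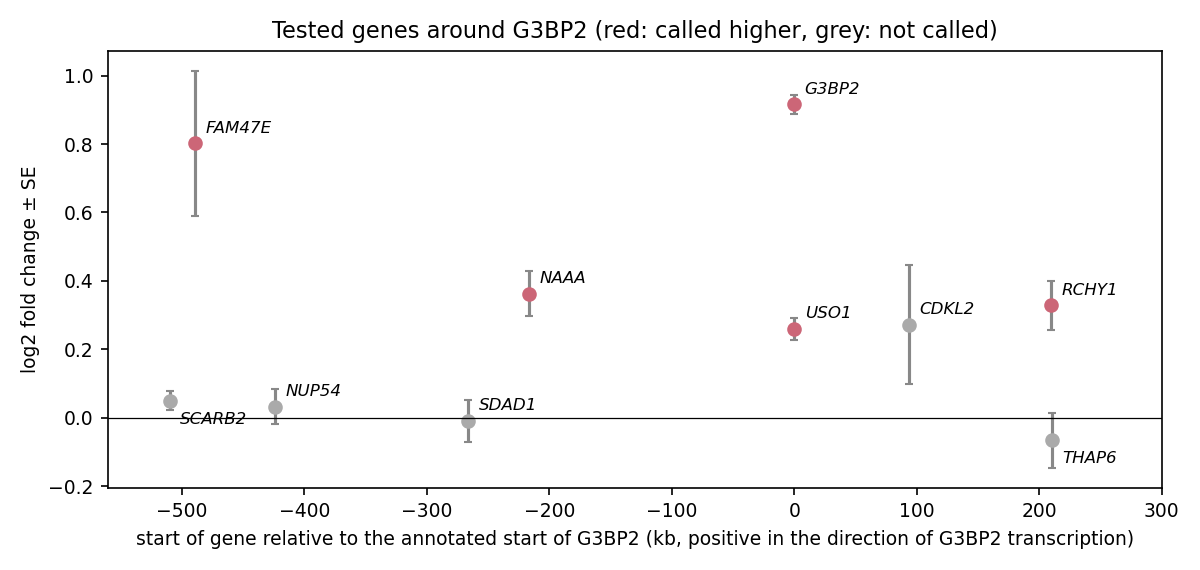
Log2 fold change with standard error of the tested genes around G3BP2, against the distance of their annotated start from that of G3BP2 in kb, positive in the direction of G3BP2 transcription. G3BP2 has the highest value at 0.92, USO1 beside it has 0.26, and the points further away lie between -0.07 and 0.80.

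The genes with the pattern most like that of G3BP2 over the 6 libraries were found by the root mean square difference of log2 CPM centred on the control mean, among the 10106 genes whose log2 CPM averaged 3 or more. They were PELI2, a ubiquitin ligase gene of innate immune signalling (difference 0.03), TM4SF4, a membrane protein gene (0.03), the zinc finger gene ZNF704 (0.03), the forkhead factor gene FOXP4 (0.04) and the galactosyltransferase gene B4GALT1 (0.05). TM4SF4 went from 63.9 ± 2.31 to 123.6 ± 0.907 CPM and B4GALT1 from 160.5 ± 5.43 to 308.7 ± 6.30 CPM. The measure picks genes by the same contrast, so these values are descriptions.

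In the annotation the members had little in common beyond their function. Their transcripts (for each gene the complete GENCODE 29 transcript tagged as APPRIS principal with the longest coding sequence, which need not be the one A549 cells use) ran from 1401 bases for TIAL1 to 10240 for G3BP1, against a median of 3136.5 over 13430 tested genes. Annotated 3' UTRs ran from 231 bases for TIAL1 to 8697 for G3BP1, with 2651 for G3BP2 and a median of 1065.5 over those genes. GC content was 41.9% in G3BP2, 36.6% in TIA1 and 51.1% in PABPC1, the 3 members called higher, and 60.1%, 48.4% and 44.5% in ATXN2L, USP10 and CAPRIN1, the 3 called lower, against a median of 49.3%.

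The other genes of the pathway came in 6 lists with 102 genes, all of them tested. Of these, 19 were called higher, 44 lower and 39 were not called, which is 61.8% called against 44.2% of all tested genes. Over all tested genes 22.2% were called higher and 22.0% lower, with a median log2 fold change of -0.000355. These shares and this median stand beside each list below, whose counts are those of TMM scaling. They cover genes at all levels and were not matched to the lists for abundance. The direction depended on the scaling: total-count scaling gave 39 higher and 21 lower, and each FPKM scale gave 38 higher and 10 lower. The lists were drawn up with results of these data known, and no statement is made that any list stands apart.

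Of 35 other RNA-binding proteins of stress granules 7 were called higher, 11 lower and 17 not, with a median of 0.02. SERBP1, an mRNA-binding protein of idle ribosomes, had 250.7 ± 4.99 CPM in controls and 202.4 ± 5.31 after knockdown, a fall with a log2 fold change of -0.31 (SE 0.02, edgeR adjusted p = 1.5e-15). The cold shock protein gene YBX1 fell from 639.5 ± 12.0 to 577 ± 3.89 CPM (-0.15, SE 0.02), a call lost on the FPKM scales (both -0.04). SND1, a staphylococcal nuclease domain protein, rose from 165 ± 3.60 to 186 ± 4.44 CPM (0.17, SE 0.02). LSM14A, which joins P-bodies as well, fell by 0.13 (SE 0.02) on the log2 scale, a call lost with total-count scaling (-0.05) and on the FPKM scales (both -0.02). SERBP1 and YBX1 have processed pseudogenes that may share reads.

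Among 6 prion-like proteins that enter stress granules 1 was called higher, 3 lower and 2 not, with a median of -0.11. HNRNPA2B1, a splicing and mRNA transport factor, fell from 1210 ± 8.52 to 1091 ± 17.2 CPM (log2 fold change -0.15 with SE 0.02, and edgeR adjusted p = 1.8e-08), a call lost on the FPKM scales (both -0.04). TARDBP, for TDP-43, was called lower at -0.10 (SE 0.03) but had 0.0095 and 0.0099 on the FPKM scales and -0.02 with total-count scaling, all 3 without a call. HNRNPA1, whose many pseudogenes may share reads, rose by 0.13 (SE 0.02).

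Phosphorylation of the initiation factor eIF2 is the usual trigger of granule assembly. Of 14 genes for eIF2 kinases, eIF2, its exchange factor eIF2B and its phosphatase adaptors 2 were called higher, 9 lower and 3 not, with a median of -0.14. Over all tested genes 22.2% were called higher and 22.0% lower, with a median of -0.000355. EIF2S1, the subunit that is phosphorylated, fell from 156.5 ± 3.04 to 132 ± 1.83 CPM (log2 fold change -0.25 with SE 0.03, and edgeR adjusted p = 1.9e-11), and EIF2S2 fell from 214.3 ± 2.40 to 182 ± 2.01 CPM (-0.24, SE 0.02). The constitutive phosphatase adaptor gene PPP1R15B had -0.23 (SE 0.03), and the exchange factor gene EIF2B4 had -0.22 (SE 0.04), a call lost on the FPKM scales (-0.10 and -0.11). Chosen after their values were seen, the 2 called higher were the kinase gene EIF2AK4, for GCN2, at 0.26 (SE 0.05) and the stress-induced adaptor gene PPP1R15A, for GADD34, at 0.19 (SE 0.05).

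The initiation factors eIF4F and eIF3 stay on the stalled messages inside granules. Of 21 genes for their subunits and for related factors such as EIF4B, 4 were called higher, 10 lower and 7 not (median -0.06). EIF3F had the widest change, from 151.2 ± 1.55 to 203 ± 3.63 CPM (log2 fold change 0.43 with SE 0.02, and edgeR adjusted p = 3.3e-20). EIF4B, a cofactor of the helicase eIF4A, rose from 573.1 ± 11.5 to 665.2 ± 14.4 CPM (0.22, SE 0.02), and the helicase gene EIF4A2 rose by 0.18 (SE 0.02). EIF3M fell by 0.18 (SE 0.02), a call lost on the FPKM scales (both -0.07).

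Of 17 factors that clear stress granules 3 were called higher, 9 lower and 5 not (median -0.08). UBQLN1, a ubiquitin shuttle, fell from 160.2 ± 0.911 to 131.1 ± 1.82 CPM (log2 fold change -0.29 with SE 0.02, and edgeR adjusted p = 7.9e-14), and FAF2, an adaptor of the segregase VCP, from 89.7 ± 1.49 to 73.9 ± 1.69 CPM (-0.28, SE 0.03). The autophagy kinase gene ULK1, whose product phosphorylates VCP, rose from 49.5 ± 0.627 to 63.6 ± 1.31 CPM (0.36, SE 0.04). HSPA1A fell by 0.30 (SE 0.03), and the near-identical HSPA1B may share its reads.

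P-body proteins, of the neighbouring granules of mRNA decay, had 2 of 9 called higher, 2 lower and 5 not (median 0.06). The decapping enzyme gene DCP2 rose from 22.2 ± 0.495 to 30.99 ± 1.54 CPM (log2 fold change 0.48 with SE 0.05, and edgeR adjusted p = 2.1e-11) and the decapping activator gene PATL1 by 0.18 (SE 0.03). DCP1A, a decapping cofactor, had -0.27 (SE 0.07), a call lost on the FPKM scales (-0.10 and -0.15). EDC4, the decapping scaffold, had -0.18 (SE 0.07) with overlapping groups, and its call was lost with total-count scaling, on both FPKM scales and without control replicate 2 or 3 or knockdown replicate 1 or 2 (-0.20, -0.11, -0.11 and -0.19).

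**Figure D5:**
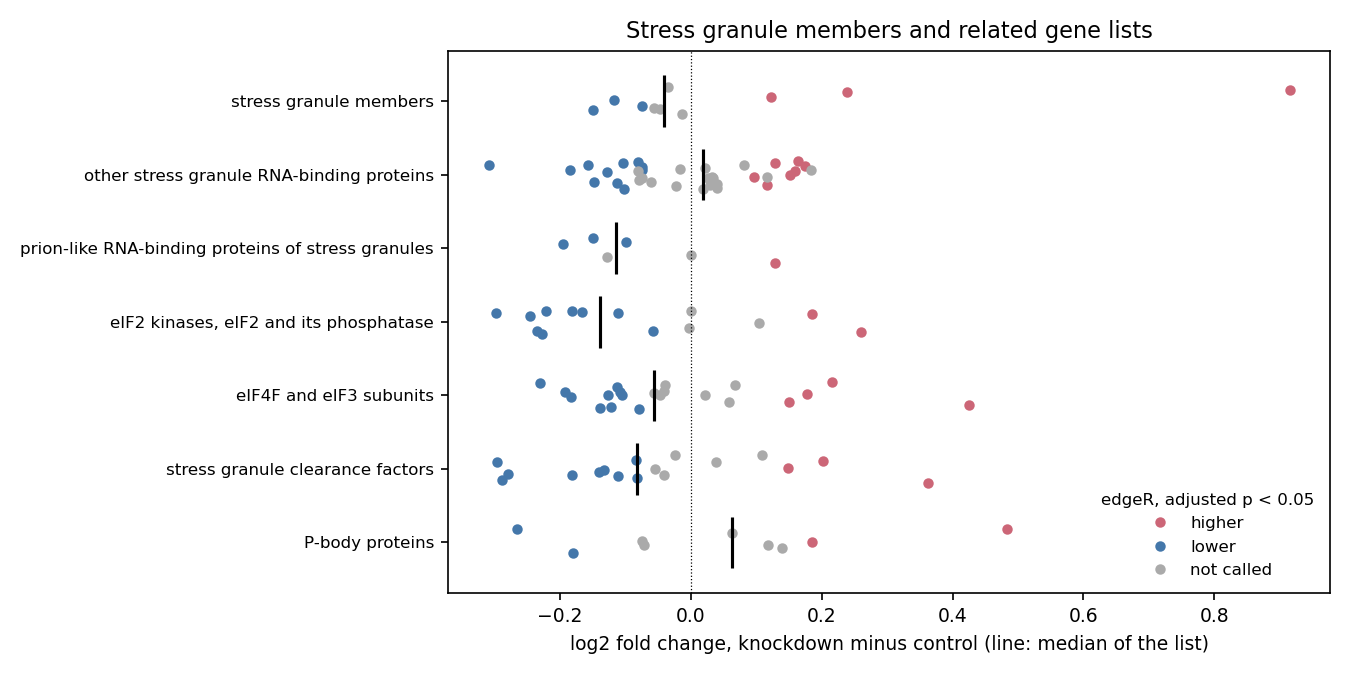
Log2 fold change, knockdown minus control, of the 10 members and of 6 lists of related genes, with 1 point per gene coloured by its call in edgeR and a line at each list's median. G3BP2 lies at 0.92 and the list genes between -0.31 and 0.48.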

How the data were processed

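The authors deposited raw read counts per gene and FPKM values rounded to 2 decimals, with 1 column per library named by its sample title. HISAT2, DESeq2 and the GRCh38 build are listed in the submitters' processing notes. The sources used here do not give the counting tool, its strand setting or the annotation. Libraries are directional and paired-end, per the labels' protocols. Of 30493 gene identifiers 29556 (96.9%) matched GENCODE 29, the source of coordinates and transcripts.

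Counts were filtered with filterByExpr (minimum count 10), scaled by TMM and fitted with edgeR's robust quasi-likelihood model, with Benjamini-Hochberg adjustment over 17089 genes (edgeR 4.0.16, limma 3.58.1, DESeq2 1.42.0, R 4.3.3). Calls are genes below an adjusted p of 0.05. Standard errors are the log2 fold change over the root of F, and log2 CPM used a prior count of 2. No 2 libraries agreed within sampling noise (chi-square per degree of freedom 1.78 to 2.88). Data were simulated for these 17089 genes with the same common dispersion for all (coefficient of variation 2.61%). Of 50 genes changed by a log2 of 0.25, 0.5, 1 and 2 each, the test called 34, 38, 47 and 48. Among 16889 unchanged genes it called 4. Real genes differ in their spread, so these figures hold for that setting only.

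The members and lists were chosen with earlier results of these data known. Named genes are the members, STAU1, up to 4 called genes with the smallest adjusted p per pathway list, the members' paralogs UBAP2, CAPRIN2 and PABPC4, and the 5 genes most like G3BP2. A gene that this rule names is not reported here. Genes around G3BP2 and overlapping genes were added after values were seen. Alternatives were scaling by RLE, by upper quartile or by total count, a filter of 1 CPM in 3 libraries or none, DESeq2, limma-voom, limma-trend on FPKM as log2 with a pseudocount of 1 or 0.1, the replicate number as a block, and each library left out.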

Additional observations from a re-analysis of the deposited data

How the results depend on the processing

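Over 16 alternatives, 150 of 160 values of the 10 members kept their side of the threshold and, where called, their direction, and the other 10 values belonged to CAPRIN1, USP10 and ATXN2L. Of the members not called, G3BP1, UBAP2L and TIAL1 turned positive in 3 alternatives and ATXN2 in 4. Called members lower went from 3 to 0 with total-count scaling and on both FPKM scales, and ranged from 2 to 3 with 1 library left out. Pathway genes called higher went from 19 to 39 with total-count scaling and to 38 on each FPKM scale, and those called lower from 44 to 21, 10 and 10. Genes called lower over the whole table went from 3759 to 2407 under total-count scaling and to 1546 and 1539 on the FPKM scales with a pseudocount of 1 and 0.1. CAPRIN1 changed sign with total-count scaling (0.0026) and on the FPKM scales (0.0338 and 0.0352), as did TARDBP on the FPKM scales (0.0095 and 0.0099). The median of all genes moved to 0.08, 0.05 and 0.10 in those settings, and the cause of the FPKM shift was not tested. Total-count scaling moves every gene by the same amount by construction. Libraries with the same replicate number were weakly alike (correlations of deviations 0.0677, 0.0368 and 0.146). Control replicates 1 and 3 correlated best with the knockdown library of their own number. Control replicate 2 correlated best with knockdown replicate 1 (0.0457). Whether the numbers mark pairs is not settled by these values. The replicate block gave 3821 genes higher and 3844 lower, with 3 members in each direction and 19 and 46 pathway genes. Small differences such as that of ATXN2, at 930 to 1093 counts per library, were within the error of the fit.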
